A study of Homo sapiens with 12 samples.

Results

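Triiodothyronine (T3), the form of thyroid hormone that binds the nuclear receptors most tightly, was compared with the solvent dimethyl sulfoxide (DMSO) in cells at day 7 of a differentiation towards hepatocytes. All cells came from H9, an established line of human embryonic stem cells, and the labels call the cells of day 7 hepatoblasts. The T3 group was 2 libraries of day 7 cells given 30 nM T3, and the DMSO group was 2 libraries of day 7 cells given 0.1% DMSO, so the comparison used 4 of the 12 libraries of the series. The 4 libraries were chosen by these labels and by no measured value. A further 2 libraries of day 7 cells given 30 nM T4 (thyroxine, the precursor of T3), and the T3 and DMSO libraries of day 19, served to show where the day 7 response to T3 differed. The title asks for hormone-responsive genes of human hepatocyte development. The labels state neither when the hormone was added nor for how long, and the solvent of the hormone is not named for the treated cells. They do not say either whether the 2 libraries of a group were separate cultures, and a p-value here reflects the spread of the sequenced libraries alone, which can be of technical origin.

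Thyroid hormone enters cells through membrane transporters and acts through the receptors THRA and THRB, which bind DNA as partners of the retinoid X receptors. Without hormone these receptors recruit corepressors such as NCOR1, and with hormone they recruit coactivators. The deiodinases DIO1 and DIO2 make T3 from T4, and DIO3 inactivates both. Hepatoblasts are the fetal progenitors of hepatocytes and bile duct cells, and arise from definitive endoderm, which in turn arises from pluripotent cells.

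Each of the 4 libraries held 18363549 to 18530589 expected counts, the reads that the authors' quantification assigned to transcripts. Levels are given as CPM (counts scaled to library size) after scaling between libraries. Of the 25 hepatoblast markers listed, 0 lay below 1 CPM in both groups. KRT8, a simple epithelial keratin, stood at 1877 and 1861 CPM with T3 and at 2037 and 2020 CPM with DMSO, and the epithelial marker EPCAM at 370.4 and 377 CPM with T3 and 369.9 and 358 CPM with DMSO. HNF4A, a master regulator of hepatocyte genes, had 246 and 229.5 CPM with T3 against 341 and 342 CPM with DMSO, and TTR, AFP and APOB were also present, with values given further on. ALB, which encodes albumin, was near 0, with 0.735 and 0.783 CPM under T3 and 1.30 and 0.962 CPM under DMSO. Of 18 measured genes of mature hepatocyte enzymes, 7 lay below 1 CPM in both groups. The pluripotency factor POU5F1 stood at 585 and 567.5 CPM under T3 and was present at 168 and 177 CPM under DMSO. These are bulk libraries, in which fewer cells of a type and less RNA per cell cannot be told apart.

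The T3 libraries differed from the DMSO libraries at many genes, mostly by modest amounts. edgeR's quasi-likelihood test called 2891 of 18101 genes (16%) at a Benjamini-Hochberg adjusted p of at most 0.05. Of these 1707 (9.43% of the genes tested) were higher and 1184 (6.54%) lower with T3. The median size of a called change was 0.42 on the log2 scale, and 1919 called genes, 66.4%, changed by less than 1.5-fold. A change of at least 2-fold was called for 308 genes (1.7%) that were higher and 116 (0.641%) that were lower. Among genes above 100 CPM, 8 rose and 0 fell by at least 2-fold. Without overlap between the libraries of the groups, 33.2% of genes lay higher and 29.2% lower, called or not. The median log2 fold change of all genes was 0.0077. Counts within gene lists are to be read against the shares of all genes called, 9.43% higher and 6.54% lower. The lists were written with earlier results of these data known, so their counts are descriptions and not independent support. Leaving out any 1 of the 4 libraries reduced the calls to between 1325 and 1476, and 71 of the 222 called genes tracked by name then lost the call in at least 1 case. Where the results name one of them, the highest adjusted p with 1 library left out is given as its leave-one-out p.

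**Figure D1:**
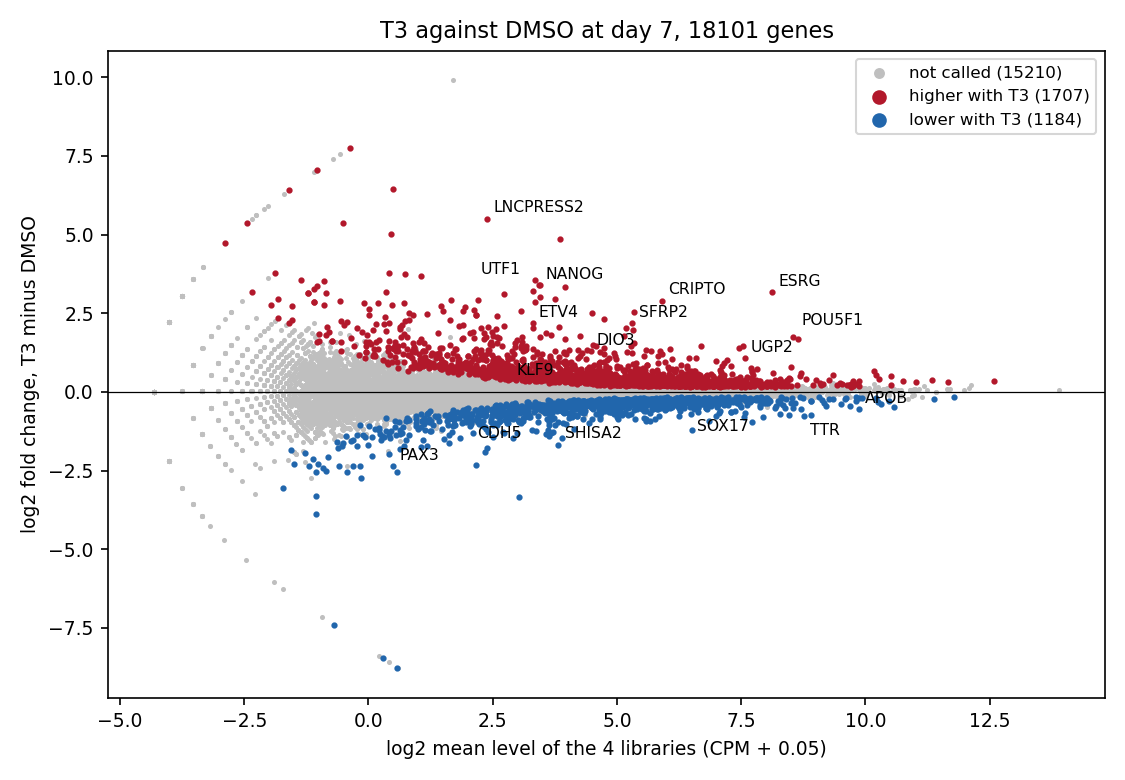
Each point is a gene, with its mean level over the 4 libraries of day 7 on the horizontal axis (log2 CPM) and its log2 fold change, T3 minus DMSO, on the vertical axis. Red points are the 1707 genes higher with T3, blue points the 1184 lower and grey points the genes not called. ESRG (3.17) and CRIPTO (2.90) lie well above 0, and TTR (-0.76) and SHISA2 (-1.67) below.

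Of 25 measured genes for receptors, transport and deiodination of the hormone, 5 (20%) rose and 2 (8%) fell, against 9.43% and 6.54% of all genes, with a median log2 fold change of 0.07, and with any 1 library left out 2 or 3 rose and 1 or 2 fell. DIO3, the enzyme that inactivates T3, stood at 32.5 and 30.1 CPM with T3 and at 11.7 and 14.0 CPM with DMSO. Both T3 libraries lay above both DMSO libraries, and DIO3 rose by 1.28 on the log2 scale (SE 0.14, adjusted p = 2.05e-05), as all such sizes are given. DIO2, which makes T3 from T4, had 23.5 and 22.99 CPM with T3 against 32.1 and 30.2 CPM with DMSO and was called lower, with a leave-one-out p of 0.102 and no call by limma on FPKM. The transporter gene SLC7A8, which carries thyroid hormones along with large amino acids, rose by 0.57 (adjusted p = 0.000651). SLCO4A1, an organic anion transporter that carries thyroid hormones, had 2.30 and 1.66 CPM with T3 against 0.963 and 0.577 CPM with DMSO (leave-one-out p 0.105).

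The receptor gene THRB had 10.8 and 10.7 CPM with T3 and 7.37 and 7.79 CPM with DMSO. It was called higher by 0.50 (SE 0.12, adjusted p = 0.0106), with a leave-one-out p of 0.0868. THRA had 21.4 and 22.5 CPM with T3 and 20.3 and 21.5 CPM with DMSO, with groups that overlapped, and was not called (adjusted p = 0.731). Per length, THRA was the more abundant receptor transcript in both groups, with a mean of 9.65 FPKM with T3 and 9.41 FPKM with DMSO, against 1.56 and 1.13 FPKM for THRB with T3 and with DMSO. TTR, a carrier of thyroxine and retinol that also marks hepatic cells, fell by 0.76.

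Of 22 measured genes known to respond to thyroid hormone in other cells, 6 rose and 2 fell, with a median of 0.22. With any 1 library left out 2 to 4 rose and 0 or 1 fell. SLC16A6, a carrier of small metabolites, stood at 6.03 and 7.68 CPM with T3 against 3.71 and 3.03 CPM with DMSO, and rose by 1.02 (SE 0.17, adjusted p = 0.00113). CPT1A, the entry enzyme of mitochondrial fatty acid oxidation, rose by 0.64 (adjusted p = 0.00281, leave-one-out p 0.0507). HR, a receptor corepressor, had 1.27 and 1.71 CPM with T3 against 0.722 and 0.433 CPM with DMSO (leave-one-out p 0.114). KLF9, a transcription factor with a well known thyroid response element, had 7.498 and 8.56 CPM with T3 and 6.31 and 6.40 CPM with DMSO. Its T3 libraries both lay higher, its log2 fold change was 0.34 (SE 0.14) and it was not called (adjusted p = 0.125).

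DIO1, a classic target of T3 in liver, had 3.73 and 3.18 CPM with T3 against 4.19 and 4.04 CPM with DMSO. The log2 fold change of DIO1 was -0.25 and it was not called (adjusted p = 0.562). The 150 bases before its annotated start are shown because they hold AGGTCA, the letters of the core sequence that thyroid hormone receptors bind, on the minus strand (capitals, from RefSeq, GRCh38.p14, 5′ to 3′ along the gene).
DIO1, chr1:53894037-53894186, plus strand: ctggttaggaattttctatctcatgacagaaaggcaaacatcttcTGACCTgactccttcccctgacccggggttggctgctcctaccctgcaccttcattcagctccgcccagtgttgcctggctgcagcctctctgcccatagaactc
AGGTCA was searched on both strands in the 250 bases before the start of 13908 tested genes. It was present in 9.36% of promoters of genes higher with T3, 7.90% of those lower and 9.28% of all. Among genes with changes of at least 2-fold, it was in 25 of 188 promoters of higher genes (13.3%). For lower genes it was in 5 of 83 (6.02%), so these shares rest on few promoters. The paired form, AGGTCA repeated in the same orientation after 4 bases of any kind, was in 0 of the 13908 windows. Only exact copies within the 250 bases were counted, so the 0 says little of looser forms or of sites further away. Such matches describe letters only and are not binding sites.

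Of the lists described, pluripotency factors had the highest median. Of 27 measured pluripotency factors 24 rose and 0 fell, with a median of 1.46, and with any 1 library left out 22 or 23 rose. The summed level of these 27 genes was 4183 and 4128 CPM with T3 against 2321 and 2350 CPM with DMSO. NANOG, a homeodomain factor that maintains the pluripotent state, had 19.1 and 20.2 CPM with T3 and 1.64 and 2.12 CPM with DMSO. Both T3 libraries stood far above both DMSO libraries, and NANOG rose by 3.39 (SE 0.17, adjusted p = 1.12e-08). SOX2, a partner of POU5F1, had 118 and 121 CPM with T3 against 58.5 and 54.3 CPM with DMSO, and rose by 1.08 (SE 0.068, adjusted p = 1.27e-07). UTF1, a chromatin protein of undifferentiated cells, rose by 3.56, and PRDM14, which represses differentiation genes, by 2.84. KLF4 rose by 1.34 and TERT, the catalytic subunit of telomerase, by 1.70. LIN28A, which blocks maturation of let-7 microRNAs, had 1147 and 1110 CPM with T3 and 1033 and 1046 CPM with DMSO, and was not called (log2 fold change 0.12, adjusted p = 0.140).

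The promoters of NANOG and SOX2, and that of SFRP2 described further on, are shown because each holds TTTGCAT, the letters recognised by POU domain factors such as the POU5F1 product, marked in capitals on either strand (RefSeq, GRCh38.p14, the 150 bases before each start).
NANOG, chr12:7789252-7789401, plus strand: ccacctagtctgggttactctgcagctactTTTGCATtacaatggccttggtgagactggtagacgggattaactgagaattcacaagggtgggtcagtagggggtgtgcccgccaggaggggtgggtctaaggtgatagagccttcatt
SOX2, chr3:181711775-181711924, plus strand: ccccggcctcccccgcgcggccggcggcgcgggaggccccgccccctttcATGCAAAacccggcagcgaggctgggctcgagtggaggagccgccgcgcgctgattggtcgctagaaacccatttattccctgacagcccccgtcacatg
SFRP2, chr4:153789084-153789233, minus strand: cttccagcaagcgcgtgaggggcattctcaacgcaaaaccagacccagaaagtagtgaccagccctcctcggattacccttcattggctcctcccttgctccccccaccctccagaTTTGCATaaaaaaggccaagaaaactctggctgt
These letters were present in 3.25% of promoters of genes higher with T3, 3.18% of those lower and 2.90% of all 13908. They were in 10 of 188 promoters (5.32%) of genes higher by at least 2-fold and 3 of 83 (3.61%) of those lower by at least 2-fold. The 150 bases before the starts of ALDH1A1, HES6 and NRARP hold these letters too and are not shown. The motif and the promoters shown were chosen with the results known, and a match says nothing of binding.

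Noncoding transcripts of stem cells rose alongside. Of 11 measured, 9 rose and 0 fell, with a median of 0.88. ESRG, a primate transcript derived from an endogenous retrovirus and abundant in embryonic stem cells, had 509 and 496 CPM with T3 against 58.1 and 53.3 CPM with DMSO. The groups were far apart, and ESRG rose by 3.17 (SE 0.092, adjusted p = 1.1e-10). LINC00678 had 26.9 and 29.1 CPM with T3 against 0.819 and 1.11 CPM with DMSO, and rose by 4.85. LINC-ROR rose by 2.58. Among all 1784 lncRNAs tested, 56 were higher and 52 lower with T3, and among 15625 protein-coding genes 1633 were higher and 1113 lower.

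**Figure D2:**
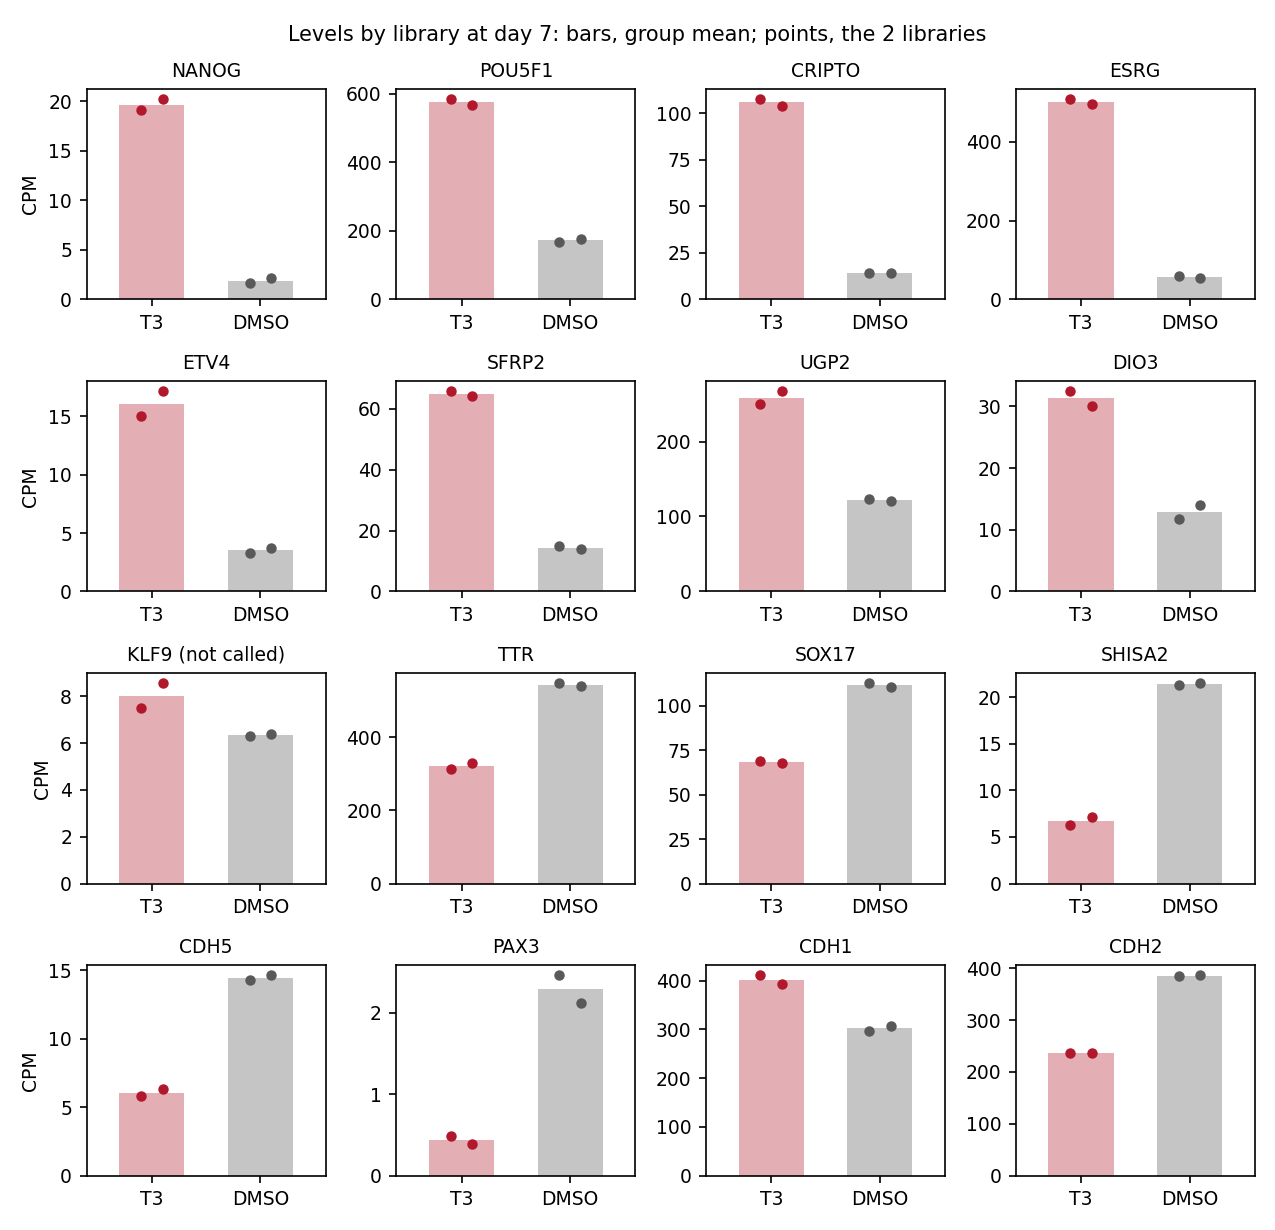
Levels in CPM of 16 genes in the 4 libraries, T3 on the left and DMSO on the right of each panel. Bars are group means and points the 2 libraries. NANOG through DIO3 and CDH1 lie higher with T3 in both libraries, TTR through PAX3 and CDH2 lie lower, and KLF9 was not called.

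Nodal and FGF signalling both maintain human pluripotent cells in culture. Of 24 measured Nodal and activin genes 7 rose and 3 fell, and with any 1 library left out 6 or 7 rose and 1 to 3 fell. NODAL, a ligand of the TGF-beta family, had 7.99 and 8.41 CPM with T3 and 3.997 and 3.85 CPM with DMSO, and rose by 1.06 (SE 0.15, adjusted p = 0.000235). CRIPTO, its co-receptor, had 108 and 104 CPM with T3 against 13.9 and 14.4 CPM with DMSO, and rose by 2.90 (SE 0.096, adjusted p = 1.66e-10). A near copy, CRIPTO3, can share reads with it. FOXH1, a DNA-binding partner of the SMAD proteins, rose by 1.23. The feedback inhibitors LEFTY1 and LEFTY2, at 1.61 CPM or less in every library, rose by 5.38 and 2.82, sizes that rest on few reads with DMSO. INHBA, which encodes activin A, was at 0.343 and 0.391 CPM with T3 against 0.915 and 1.06 CPM with DMSO (leave-one-out p 0.0824).

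Of 25 measured FGF genes 7 rose and 3 fell, with a median of 0.01. The ligand gene FGF4 had 2.25 and 2.54 CPM with T3 against 0.145 and 0.192 CPM with DMSO and rose by 3.78, and FGF2, the ligand used to culture human stem cells, rose by 0.60. The ETS factors ETV1, ETV4 and ETV5, textbook readouts of FGF signalling, rose by 2.93, 2.19 and 1.67. ETV4 stood at 15.1 and 17.2 CPM with T3 against 3.32 and 3.75 CPM with DMSO. The feedback inhibitor SPRY4 rose by 1.76 (SE 0.13, adjusted p = 6.47e-07). Other members went the opposite way: FLRT3, a membrane protein that binds FGF receptors, fell by 0.92 and the phosphatase DUSP4 by 1.01.

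Among 38 measured WNT genes 6 rose and 8 fell, and with 1 library left out 2 or 3 rose and 4 or 5 fell. SFRP2, a secreted WNT modulator, had 65.8 and 64.2 CPM with T3 and 14.9 and 13.8 CPM with DMSO, and rose by 2.18 (SE 0.072, adjusted p = 1.66e-10). The WNT target SP5 fell by 0.85, the receptor FZD4 by 0.68 and the secreted inhibitor DKK1 by 0.91. Of 24 BMP genes 3 rose and 8 fell, and with 1 library left out 0 or 1 rose and 5 or 6 fell. The antagonists GREM1 and NOG fell by 1.75 and 0.59, and the ligand BMP2, at 80.3 and 84.2 CPM with T3 against 111 and 112 CPM with DMSO, by 0.44. Of 19 Notch genes 5 rose and 2 fell, with 3 or 4 rising and 1 or 2 falling when 1 library was left out. The target HEY2 rose by 1.43 and the receptor NOTCH1 by 0.70, while the ligand DLL1 fell by 0.73. Of 19 genes of retinoic acid handling 2 rose and 4 fell, and with 1 library left out 0 to 2 fell. CRABP1, a retinoic acid binding protein, rose by 0.60, whereas LRAT, which stores retinol as esters, was called lower by 0.74 (leave-one-out p 0.0707). PTCH1, the hedgehog receptor and itself a hedgehog target, fell by 0.76 (adjusted p = 9.35e-06). It was named after its value was seen.

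Most genes of definitive endoderm that changed were lower with T3. Of 19 measured genes of definitive endoderm 11 fell and 1 rose, with a median of -0.52, and with 1 library left out 9 or 10 fell. SHISA2, an endoplasmic reticulum protein that restrains WNT and FGF receptors in the frog Xenopus, had 6.32 and 7.09 CPM with T3 against 21.3 and 21.5 CPM with DMSO. All T3 values were lower, and SHISA2 fell by 1.67 (SE 0.12, adjusted p = 5.78e-07). PRDM1, a transcriptional repressor, fell by 0.85, FOXA1 by 0.77 and GATA6 by 0.47. LINC00261, a noncoding transcript of endoderm next to FOXA2, had 144.9 and 142 CPM with T3 against 278 and 274.5 CPM with DMSO (log2 fold change -0.94, adjusted p = 2.43e-06), and was named after its value was seen.

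Of 19 measured hepatic transcription factors 7 fell and 2 rose, with a median of -0.34. TBX3, which drives hepatoblast growth, had 128 and 134 CPM with T3 against 201 and 198 CPM with DMSO, and fell by 0.61 (adjusted p = 0.000467). PROX1, needed for liver bud outgrowth in the mouse, was called lower by 1.44 at 0.441 and 0.832 CPM with T3 against 1.69 and 1.78 CPM with DMSO (leave-one-out p 0.0878). CEBPA and CEBPB, factors of the mature hepatocyte, were called higher by 0.27 and 0.36, with leave-one-out p of 0.152 and 0.240. With 1 library left out 3 to 6 of the factors fell and 0 rose.

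Of 25 measured hepatoblast markers 10 fell and 2 rose, with a median of -0.23, and with 1 library left out 5 or 6 fell and 2 rose. TTR stood at 313.5 and 328 CPM with T3 and at 547 and 539 CPM with DMSO (adjusted p = 0.000491). SERPINA1, which encodes alpha-1 antitrypsin, had 37.7 and 40.5 CPM with T3 against 61.5 and 62.6 CPM with DMSO, and fell by 0.66. DLK1, a surface marker of fetal hepatoblasts, fell by 0.94. APOB, the apolipoprotein of secreted lipoproteins, had 776 and 743 CPM with T3 against 1104 and 1119 CPM with DMSO (leave-one-out p 0.0621), and AFP had 91.7 and 89.3 CPM against 136 and 131 CPM with DMSO (leave-one-out p 0.0911). The 2 members that rose were CDH1, the epithelial cadherin that pluripotent cells also carry, by 0.41, and SPP1, the secreted phosphoprotein osteopontin, by 1.17. Beside these falls, the pluripotency sum given above was higher in the same T3 libraries, and its part in the falls was not tested.

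Of 18 measured mature hepatocyte enzymes 0 rose and 0 fell. DESeq2 called 1 higher and 0 lower, and limma on FPKM likewise 1 and 0.

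**Figure D3:**
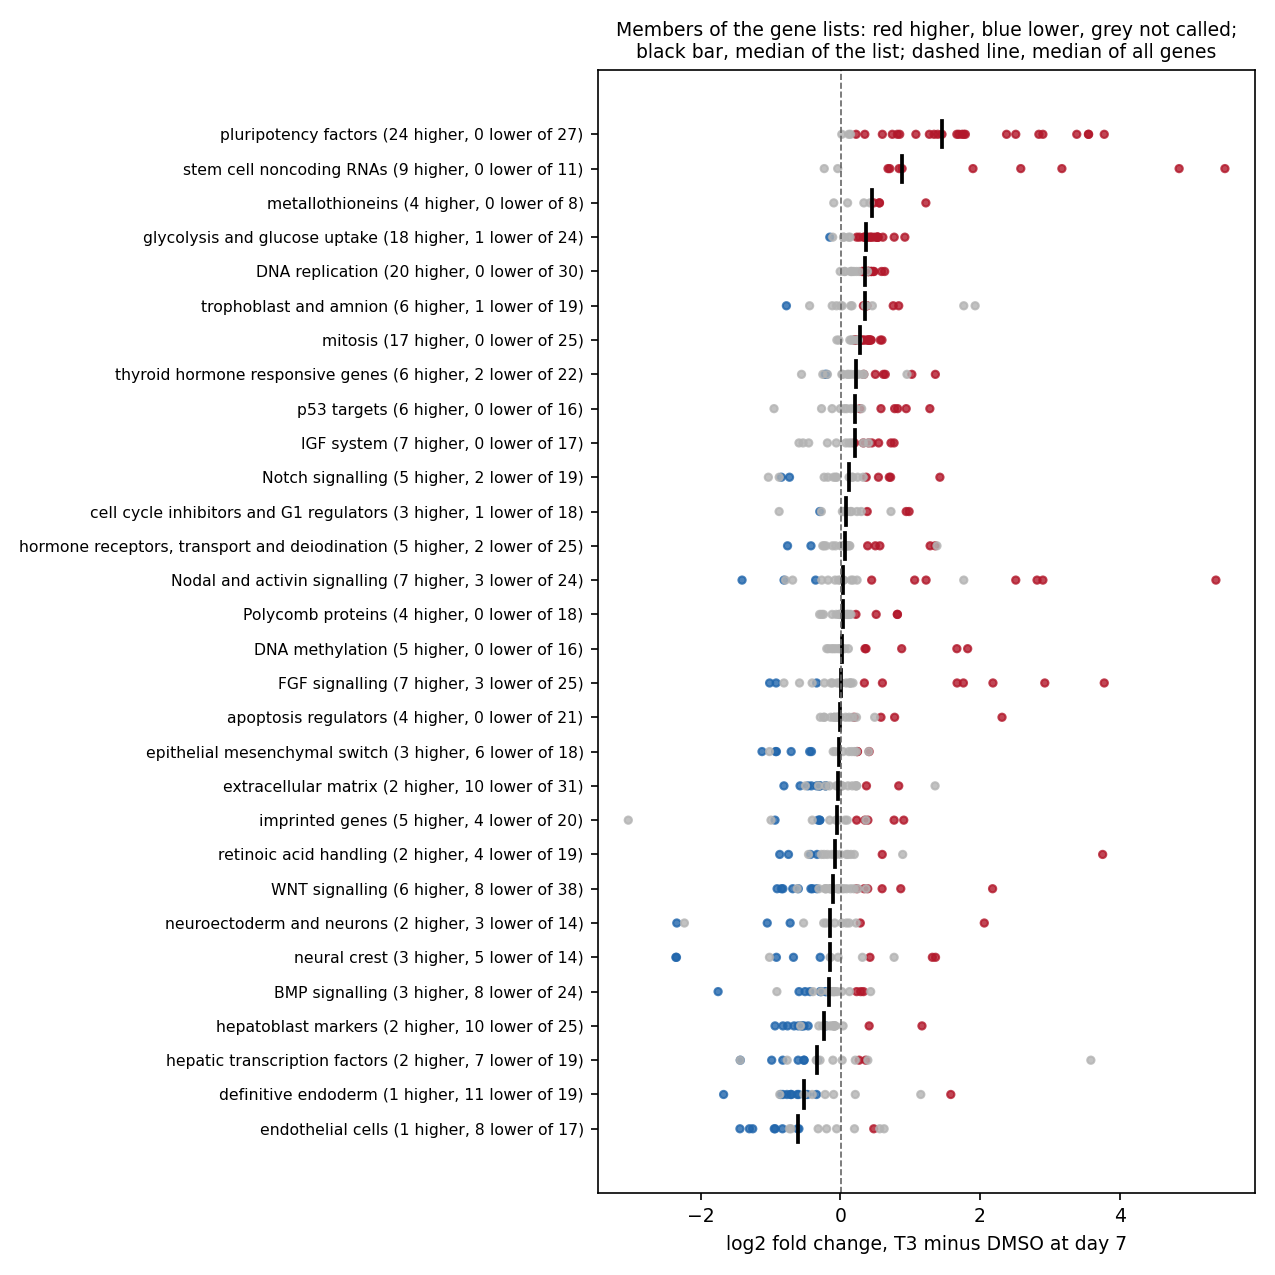
Each row is a gene list and each point a measured member, placed by its log2 fold change, T3 minus DMSO. Red points were called higher, blue lower and grey not called, black bars are list medians and the dashed line the median of all genes. The medians run between -0.61 for endothelial cells and 1.46 for pluripotency factors.

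Of 17 measured endothelial genes 8 fell and 1 rose, with a median of -0.61, and 5 to 7 fell with 1 library left out. Their summed level was 115.5 and 119.5 CPM with T3 against 163 and 165 CPM with DMSO. Of these 17 genes 4 were below 1 CPM in both groups. FLI1, an ETS factor of blood vessels and blood, had 2.65 and 3.38 CPM with T3 against 8.09 and 8.27 CPM with DMSO, and fell by 1.44 (SE 0.20, adjusted p = 0.000187). TIE1 and TEK, receptors of the angiopoietin system, fell by 1.31 and 0.83. CD34, a marker of vessels and blood progenitors, had 7.84 and 6.90 CPM with T3 against 17.3 and 16.6 CPM with DMSO.

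Of 14 measured neuroectoderm genes 2 rose and 3 fell, 1 or 2 rising with 1 library left out. SOX3, which pluripotent cells also express, had 22.8 and 22.8 CPM with T3 against 5.59 and 5.34 CPM with DMSO, and rose by 2.06 (SE 0.11, adjusted p = 2.25e-08). ZIC2 fell by 0.72 and MAP2, a neuronal microtubule protein, by 1.05. Of 14 neural crest genes 3 rose and 5 fell, 3 to 5 falling with 1 library left out. The neurotrophin receptor gene NGFR rose by 1.36, while ETS1 and SNAI2 fell by 0.67 and 0.92. PAX3 fell by 2.36 at 0.490 and 0.391 CPM with T3 against 2.46 and 2.12 CPM with DMSO. Of 19 trophoblast and amnion genes 6 rose and 1 fell, 2 to 5 of them rising with 1 library left out. KRT7 rose by 0.76, at 106 and 108 CPM with T3 against 63.2 and 63.6 CPM with DMSO, and GABRP, an amnion marker, fell by 0.77.

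Adhesion and matrix genes changed in both directions. CDH2, the neural and mesenchymal cadherin, had 236 and 237 CPM with T3 and 385 and 386 CPM with DMSO. Its T3 libraries were lower, and CDH2 fell by 0.71 (SE 0.064, adjusted p = 5.1e-06). CDH1 had 411 and 393 CPM with T3 and 297 and 307 CPM with DMSO and rose (adjusted p = 0.000314). VIM, an intermediate filament of mesenchymal cells, fell by 0.44. In the list of 18 genes of the epithelial to mesenchymal switch 3 rose and 6 fell, with 1 and 3 to 5 when 1 library was left out. Of 31 measured matrix genes 2 rose and 10 fell, and with 1 library left out 1 rose and 3 or 4 fell. Within this list the basement membrane collagen COL4A6 fell by 0.81 (SE 0.074, adjusted p = 5.8e-06), COL4A1 by 0.47 and COL4A5 by 0.42. COL4A6 had 188 and 171 CPM with T3 against 315 and 314 CPM with DMSO. COL6A3 rose by 0.84. COL2A1, the cartilage collagen, fell by 1.21 at 56.1 and 54.1 CPM with T3 against 125 and 131 CPM with DMSO, and was named after its value was seen.

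Genes of DNA synthesis and division rose by small amounts. Of 30 measured replication genes 20 rose and 0 fell, with a median of 0.36, and of 25 mitotic genes 17 rose and 0 fell, with a median of 0.28. With 1 library left out 13 to 15 and 9 to 11 rose. CDT1, which loads the replicative helicase, had 67.0 and 68.5 CPM with T3 against 42.7 and 44.7 CPM with DMSO, and rose by 0.63 (adjusted p = 8.39e-05). The helicase subunits MCM3 and MCM4 rose by 0.40 and 0.41 and RRM2, which makes deoxynucleotides, by 0.44. The proto-oncogene MYC rose by 0.98, at 8.43 and 7.29 CPM with T3 against 3.80 and 4.14 CPM with DMSO. Of 18 measured inhibitors and G1 regulators of the cell cycle 3 rose and 1 fell, with 3 and 0 or 1 when 1 library was left out. CCND1, which encodes cyclin D1, rose by 0.38, and the inhibitor gene CDKN1C, at 432 and 425 CPM with T3 against 516 and 535 CPM with DMSO, was called lower by 0.30 (leave-one-out p 0.0691). Of 16 measured p53 targets 6 rose and 0 fell, with a median of 0.21. CDKN1A, the p21 inhibitor of the cell cycle, had 22.0 and 22.2 CPM with T3 against 11.0 and 12.0 CPM with DMSO, and rose by 0.94 (SE 0.088, adjusted p = 7.09e-06). PHLDA3, an inhibitor of AKT, rose by 1.28, FDXR by 0.82 and the death effector BAX by 0.58. PMAIP1, which encodes the BH3 protein NOXA, had 44.2 and 44.9 CPM with T3 against 8.71 and 9.19 CPM with DMSO and rose by 2.31, and BBC3, the related protein PUMA, by 0.78. Of 21 apoptosis regulators 4 rose and 0 fell.

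Glucose metabolism genes were mostly higher with T3. Of 24 measured genes of glycolysis and glucose uptake 18 rose and 1 fell, with a median of 0.37. ENO2, an enolase of neurons and of stem cells, had 73.1 and 76.1 CPM with T3 against 38.3 and 40.4 CPM with DMSO and rose by 0.92 (SE 0.062, adjusted p = 2.58e-07). GPI rose by 0.45. UGP2, which makes UDP-glucose for glycogen and glycosylation, had 249.5 and 267 CPM with T3 against 124 and 121 CPM with DMSO, and rose by 1.08 (SE 0.053, adjusted p = 1.12e-08). Of 17 IGF genes 7 rose and 0 fell, 2 to 4 rising with 1 library left out. IGF2, the fetal growth factor, stood at 274 and 252 CPM with T3 and at 157 and 152 CPM with DMSO and rose by 0.77, and its binding protein IGFBP3 by 0.33. Of 20 imprinted genes 5 rose and 4 fell, with 1 to 4 and 1 or 2 when 1 library was left out. Of 8 metallothionein genes, which encode metal-binding proteins, 4 rose, and 1 or 2 with 1 library left out. The change was largest for MT1X at 40.7 and 45.1 CPM with T3 against 17.5 and 19.2 CPM with DMSO (log2 fold change 1.22). The other 3, MT1G, MT1E and MT2A, had leave-one-out p of up to 0.145 and no call by limma on FPKM, and metallothionein genes are close copies that can share reads.

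Of 16 measured DNA methylation genes 5 rose and 0 fell, and 2 or 3 rose with 1 library left out. DNMT3B, a de novo methyltransferase abundant in pluripotent cells, had 617 and 605.5 CPM with T3 against 189 and 195.5 CPM with DMSO and rose by 1.67. The summed level of the 16 genes was 1414 and 1378 CPM with T3 against 945 and 947 CPM with DMSO. The maintenance enzyme DNMT1 was called higher by 0.35 (leave-one-out p 0.0915), and GADD45B, a stress protein implicated in demethylation, rose by 0.88. Of 18 Polycomb genes 4 rose and 0 fell. PHC1 had 180 and 174 CPM with T3 against 101.5 and 99.6 CPM with DMSO and rose by 0.82 (SE 0.062, adjusted p = 8.84e-07), and JARID2, which recruits the complex, rose by 0.82 as well. The catalytic genes EZH1 and EZH2 had log2 fold changes of -0.01 and -0.02. Of 26 ribosomal protein genes 0 were called higher and 0 lower. Their log2 fold changes all lay above 0, between 0.012 and 0.18, with a median of 0.064 against 0.0077 for all genes. At an unadjusted p under 0.05 edgeR marked 5289 genes of the table, DESeq2 called 0 ribosomal protein genes, and the fit of day 7 libraries alone called 6 higher.

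Genes of low level held the largest fold changes. Of the 20 genes that rose most, 11 averaged under 1 CPM with DMSO, and of the 20 that fell most, 15 averaged under 1 CPM with T3. FOXD3-AS1 had 2.21 and 2.94 CPM with T3 against 0.0482 and 0.0962 CPM with DMSO. CCDC180 was listed at 0 in both DMSO libraries and at 1.13 and 1.76 CPM with T3 (leave-one-out p 0.0722). C13orf42, at 28.5 and 28.0 CPM with T3 against 2.99 and 2.60 CPM with DMSO, and ALPG, a germ cell alkaline phosphatase, at 19.9 and 16.0 CPM with T3 against 1.78 and 2.12 CPM with DMSO, were better counted and rose by 3.34 and 3.20. Among the falls, OTX1, a head patterning factor, had 2.16 and 2.10 CPM with T3 against 7.80 and 8.18 CPM with DMSO, and fell by 1.90 (SE 0.23, adjusted p = 7.25e-05). S1PR1, a lipid receptor of vessels, fell by 1.98 and the thrombin receptor family gene F2RL2 by 1.79. DNAAF4-CCPG1, a read-through gene whose reads its parts share, was listed at 0 in both T3 libraries and at 3.90 and 1.88 CPM with DMSO, and DESeq2 did not call it. CDRT4 and GOLGA6L22 had leave-one-out p of 0.240 and 0.173. The strand of counting is not given in the sources used here, so genes that overlap another, among them ESRG, LINC00678, FOXD3-AS1, ETV4, SPRY4, TTR, TBX3, FLI1, CD34, COL4A6, COL2A1, CDKN1A, ENO2, PHC1, KLF9, DIO1, DIO2, C13orf42, CCDC180, SOX2, CDH2, CDH1, IGF2, THRA and THRB, could hold reads of the neighbour.

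At the level of transcripts 432 of 37244 (1.16%) were called, 296 (0.795%) higher and 136 (0.365%) lower with T3. These lay in 423 genes, 357 of which were also called as genes. The spread between libraries was far wider than for genes, with a common coefficient of variation of 86.4% against 5.42%. With any 1 of the 4 libraries left out 133 to 198 transcripts were called. A fit of the 4 libraries alone called 0 by edgeR's test, with 4525 of 30771 transcripts at an unadjusted p under 0.05. Transcript usage, the share of each transcript in its gene, was called for 62 of 8744 genes (0.709%), and 33 of these had a share that moved by at least 10 percentage points. Of the 62, 14 were also called as genes.

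UGP2 was by far the best counted of the 10 genes taken for description. Its transcript NM_006759 held 75.4% and 74.5% of the gene's counts with T3 and 55.1% and 56.6% with DMSO, and NM_001001521 held the rest. NM_006759 stood at 189 and 199.5 CPM with T3 against 68.8 and 69.1 CPM with DMSO, and rose by 1.49 (SE 0.088, adjusted p = 0.000895). NM_001001521 stood at 61.6 and 68.2 CPM with T3 against 56.2 and 52.9 CPM with DMSO, and was not called (log2 fold change 0.25, adjusted p = 0.551). The usage test gave an adjusted p of 0.00367 for UGP2. The other 9 genes each had a transcript listed at 0 in both libraries of a group. In BEAN1 and MEGF10 all counts went to one transcript with T3 and to the other with DMSO. BEAN1 rests on 18 and 13 counts with T3 and 17 and 13 with DMSO. MEGF10 had 59 and 64 counts with T3 and 55 and 64 with DMSO. Its transcript NM_032446, listed at 0 with T3, was not called by edgeR's test (adjusted p = 0.343). MORC4 had 0% and 0% of its counts in NM_024657 with T3 against 33.5% and 40.7% with DMSO. At gene level, of these 9 only BNC1 was called (leave-one-out p 0.106). The division of shared reads between transcripts was made by the authors, and its error is not part of the test.

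**Figure D4:**
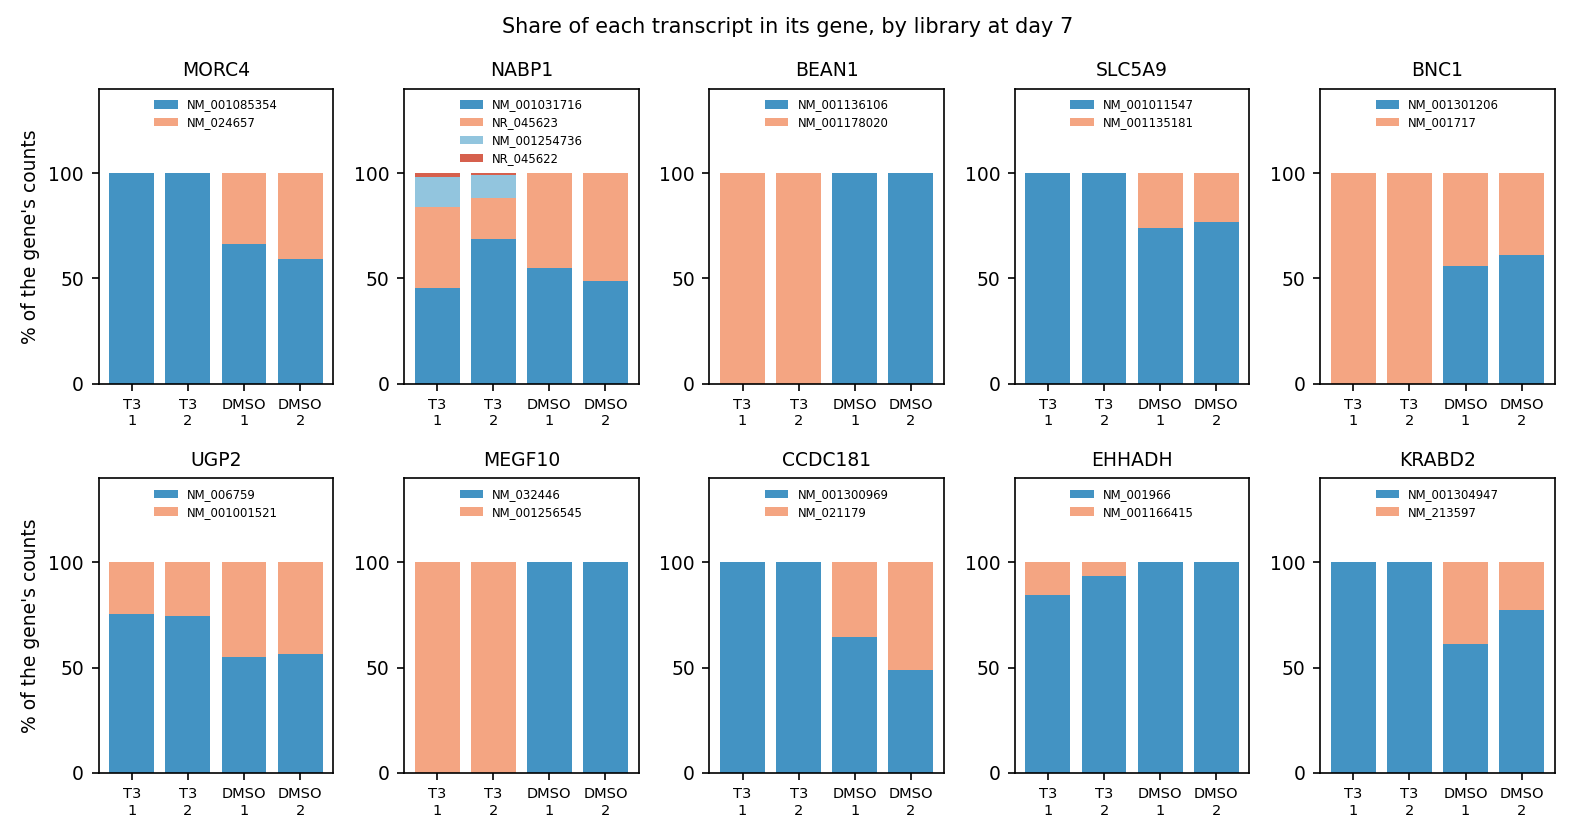
Share of each transcript in the counts of its gene, in percent, for the 10 genes named from the usage test, with both T3 libraries left of both DMSO libraries. Both transcripts of UGP2 are present in all 4 libraries, with NM_006759 at 75.4% and 74.5% under T3, and the other 9 genes have a transcript at 0 in both libraries of a group.

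T3 and T4 at the same dose differed for 66 genes (0.365%) in a direct test, 59 (0.326%) higher and 7 (0.0387%) lower with T3. With any 1 of the T3 or T4 libraries left out 19 to 24 were called. Both hormones were compared with the same DMSO libraries, so their 2 effects are given side by side and not correlated. With T4 the list medians were 1.04 for pluripotency factors, -0.37 for definitive endoderm, -0.66 for endothelial cells and 0.26 for replication genes. With T3 they were 1.46, -0.52, -0.61 and 0.36. Some medians near 0 differed in sign, such as that of FGF genes (0.01 with T3, -0.08 with T4). NANOG averaged 19.7 ± 0.805 CPM with T3 and 8.59 ± 0.958 CPM with T4 (SD, n = 2 each), a difference of 1.20 (SE 0.14, adjusted p = 0.000658). Against DMSO its log2 fold changes were 3.39 with T3 and 2.19 with T4. ESRG averaged 502 ± 9.11 CPM with T3 and 252 ± 4.09 CPM with T4, and CRIPTO 106 ± 2.60 CPM with T3 and 58.8 ± 2.35 CPM with T4. The FGF readouts ETV4 and ETV5 were higher with T3 than with T4 by 0.98 and 1.13, and SPRY4 averaged 8.67 CPM with T3 and 4.33 CPM with T4. CDH2 was lower with T3 than with T4, at 236 ± 0.831 and 297 ± 1.89 CPM, as was DLL1.

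IGF2 was at 263 ± 15.8 CPM with T3 and 147 ± 3.48 CPM with T4, a difference of 0.84 (SE 0.071, adjusted p = 3.98e-05). T4 against DMSO had a log2 fold change of -0.07 for IGF2, and was not called (adjusted p = 0.619). IGFBP3 and COL6A3 were likewise higher with T3 than with T4, by 0.47 and 0.71, and their effects of T4 against DMSO, -0.14 and 0.12, were not called.

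**Figure D5:**
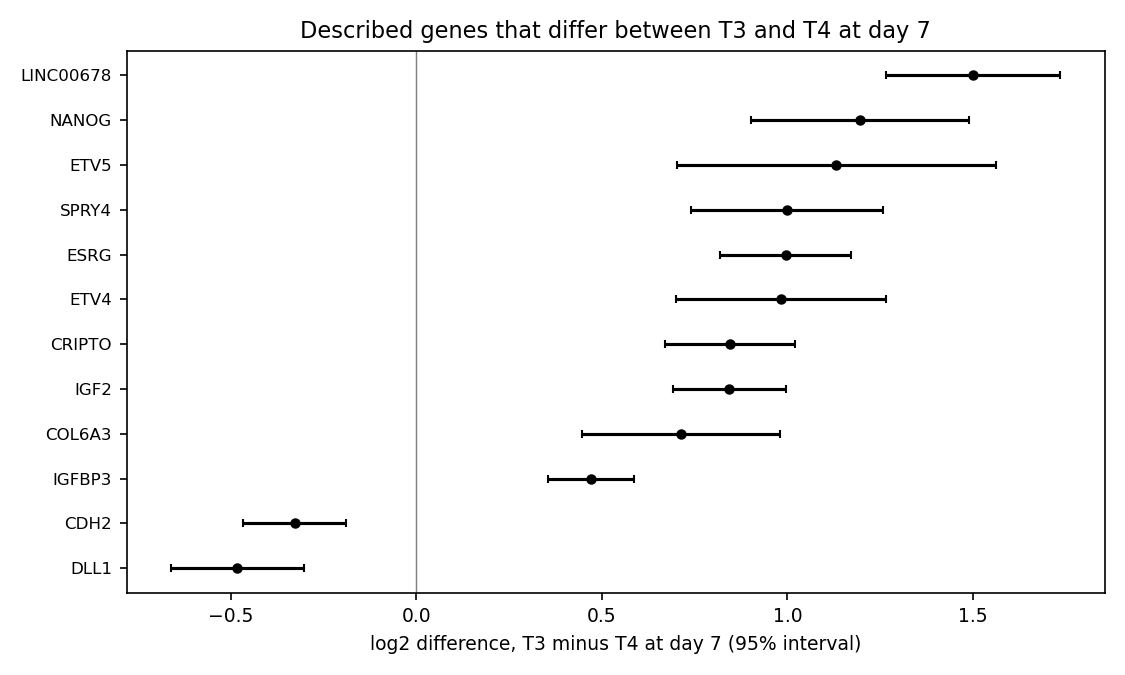
Log2 difference, T3 minus T4 at day 7, on the horizontal axis for 12 of the 66 genes that differed, chosen for description after their values were seen. Points are estimates of the fit over all 12 libraries and bars 95% intervals. LINC00678 lies furthest above 0, NANOG lies at 1.20 and IGF2 at 0.84, and CDH2 (-0.33) and DLL1 (-0.48) lie below 0.

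The T3 effect at day 7 differed from that at day 19 for 6873 genes (38%), 3782 (20.9%) with the larger log2 fold change at day 7 and 3091 (17.1%) with the smaller. These 2 effects share no library. The libraries of a group differed more at day 19, where the chi-square between them averaged 6.675 per gene for DMSO and 8.13 for T3. At day 7 it was 1.57 for DMSO and 2.05 for T3. The fit used 1 spread per gene for both days. The spread of day 19 can thus be understated in this test, and the count of 6873 too large. NANOG rose by 3.39 at day 7 and had a log2 fold change of 0.33 at day 19 that was not called (adjusted p = 0.378). TTR fell at both days, by 0.76 at day 7 and by 3.40 at day 19. The effects on SOX17 and FOXA2 did not pass the test of a difference between the days (adjusted p = 0.254 and 0.0942).

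Calls followed the base composition of transcripts in part. The median log2 fold change was -0.046 in the 20% of genes with the lowest share of G and C and 0.085 in the 20% with the highest. In the lowest group 153 genes were higher and 263 lower with T3, and in the highest 571 were higher and 188 lower. Across 14967 genes of at least 1 CPM, Spearman's rho between this share and the fold change was 0.195, as a description, since genes are not independent replicates. By chromosome the medians ran between -0.056 (chromosome 4) and 0.089 (chromosome 19). With offsets that remove the trend in each library, an alternative added after seeing the data, 2889 genes were called, 2454 of them called before, and 56% were higher, against 59% without offsets. The counts of pluripotency factors (24 higher), replication genes (21) and genes of definitive endoderm (11 lower) were then as large or larger.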

How the data were processed

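RNA of H9-derived cells was sequenced in 12 libraries, 2 for each of 6 groups. Per the submitters' processing notes, reads were processed with HISAT, Bowtie2 and RSEM on hg38, with no versions given in the sources used here. Per library the authors deposited expected counts, and FPKM values (per transcript length and library size), for each RefSeq transcript. Expected counts were summed over transcript rows to 23922 genes and rounded. Symbols matched for 23801 genes, and no mitochondrially encoded gene was listed. The 4 libraries of the comparison held 18363549 to 18530589 counts.

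The 18101 genes that passed edgeR's filterByExpr were tested in 1 quasi-likelihood fit over all 12 libraries (edgeR 4.0.16, R 4.3.3, TMM scaling, 6 residual degrees of freedom, Benjamini-Hochberg adjusted p of at most 0.05). SE is the size of the log2 fold change divided by the root of F, and rests on the spread of all 12 libraries. Transcripts were tested likewise, and usage with diffSpliceDGE. On simulated data the gene test recovered 70.1%, 91% and 100% of genes changed 1.5-fold, 2-fold and 4-fold, the transcript test 52.5% and the usage test 12.5% at 8-fold. False calls made up 3.33% of gene calls, 6.25% of transcript calls and 0% of usage calls. Only genes and transcripts above a minimum count were changed, so recovery at low levels was not tested. The simulated spread followed the trend over level and not each gene's own. It was also the same at both days, whereas in the data the libraries of day 19 differed more. The genes changed numbered 67, 67 and 66 at the 3 sizes, against 2891 called in the data. The shares of false calls therefore hold for the simulated setting. Alternatives were DESeq2 1.42.0 (its size factors, its Wald test), limma 3.58.1 on log2(FPKM + 0.1), other filters, fewer libraries, a replicate block and, added after seeing the data, GC offsets. In limma, fold changes are on the log2(FPKM + 0.1) scale.

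The gene lists and their members were chosen with earlier results of these data known. Named genes are the 20 largest changes each way among called genes that reach 1 CPM in either group, without overlap of libraries and leaving out uninformative symbols, a fixed set of genes, for each list its 4 members of lowest p, and the 10 usage genes of lowest p whose shares moved by at least 10 points. Others, such as APOB, CD34, COL2A1, ETV5, FGF2, FOXA1, GPI, INHBA, KLF4, PTCH1, SERPINA1, SLCO4A1, TERT and the serotonin receptors, were named after their values were seen. Some genes of the lists are not reported here. Promoter letters come from RefSeq, GRCh38.p14.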

Additional observations from a re-analysis of the deposited data

Results flagged for a closer look

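The T3 effect differed between day 7 and day 19 for 6873 genes by edgeR's interaction test, in which the day 19 effect is subtracted from the day 7 effect. Values here are that difference on the log2 scale, for genes of the fixed set. Among pluripotency and Nodal genes it was 3.05 for NANOG, 1.59 for POU5F1, 1.32 for NODAL, 7.61 for LEFTY1, 5.74 for LEFTY2 and -0.66 for LIN28A. Both LEFTY genes rose at day 7 and were called lower at day 19, where they rest on few reads. At day 19 LEFTY1 averaged 0.116 CPM with T3 and 0.576 CPM with DMSO, and LEFTY2 0.206 and 1.61 CPM. NODAL averaged 0.531 CPM with T3 and 0.637 CPM with DMSO at day 19 and was not called there. Among hepatic and endoderm genes it was 5.44 for AFP, 3.38 for ALB, 2.64 for TTR, 1.43 for HNF4A, 0.44 for GATA4 and -0.56 for GATA6. A positive difference here stands for a log2 fold change that was lower at day 19 than at day 7. The log2 fold changes at day 7 and day 19 were -0.56 and -6.00 for AFP, -0.76 and -3.40 for TTR, -0.52 and -1.96 for HNF4A, and -0.57 and -3.95 for ALB, which was not called at day 7. Genes of thyroid hormone action had differences of -1.06 for DIO3, 1.03 for DIO1, 0.92 for THRA, 0.90 for THRB and 1.73 for HR. THRB was called higher at day 7 and lower at day 19. ALDH1A3 differed by 1.37, IGF2 by 0.51, CDH1 by 0.49, COL1A1 by 2.24 and CDKN1A by -0.29. CDH5 differed by -2.95, with a log2 fold change of -1.26 at day 7 and 1.70 at day 19. Groups of 2 libraries were too small for a check of single libraries that stand apart.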

How the results depend on the processing

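The count of 2891 genes was 5328 with the day 7 libraries alone, 5190 with the 4 libraries alone and 1907 by DESeq2, with 2876, 2873 and 1875 genes shared with the 2891, all of the same sign. With 1 library left out it was 1325 to 1476. The share higher, 59%, was 52.7% with day 7 alone, 52.4% with the 4 libraries, 52.4% by limma on FPKM, 56% with GC offsets and 63.2% to 63.9% with 1 library left out. The T3 and T4 difference, 66 genes, was 435 with day 7 alone, 34 by limma and 19 to 24 with 1 library left out. Of transcripts, 432 in the analysis reported, 0 were called with the 4 libraries alone, 71 with the replicate block and 133 to 198 with 1 left out. Usage was called for 41 genes without a filter, 184 with day 7 alone, 363 with the 4 libraries and 73 to 101 with 1 library left out, against 62. The count of the difference between days stayed between 5491 and 7139 in the alternatives run, which also used 1 spread per gene for both days.

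Whether replicate numbers pair the libraries cannot be told from the labels. Across genes, deviations of same-numbered libraries had r of -0.0208 between T3 and DMSO and 0.155 between T3 and T4, which does not settle it. With the replicate block 2727 genes were called, 2599 shared, and 4 of the genes tracked by name lost the call, among them GOLGA6L22, and BIRC5 and CD177 (leave-one-out p 0.353 and 0.196). Signs turned for genes that were not called: the log2 fold change of THRA was -0.0078 with GC offsets and the log2 fold change of KRABD2 was -0.0746 by limma. With 1 library left out the log2 fold change of NABP1 ran between -0.021 and 0.125, the log2 fold change of BEAN1 between -0.0236 and 0.26, the log2 fold change of MEGF10 between -0.00856 and 0.208, the log2 fold change of EHHADH between -0.213 and 0.0877 and the log2 fold change of KRABD2 between -0.195 and 0.379. Of 1456 list counts 1141 stayed within 1.5 times, and these include counts of 0 that stayed at 0, which pass by rule. The analysis reported used 1 spread per gene for both days. The chi-square between the libraries of a group averaged 1.57 to 2.05 per gene at day 7 and 4.72 to 8.13 at day 19. Any part of this in the moves, and their cause, was not tested. At this depth genes under 1 CPM rest on few reads, and 2 libraries a group limit precision.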

Other observations

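Some genes outside the groups described changed at day 7, and were named after their values were seen. VASH2, a tubulin carboxypeptidase, had 38.6 and 38.2 CPM with T3 against 7.37 and 6.21 CPM with DMSO, and rose by 2.50. PLA2G2A, a secreted phospholipase, stood at 60.0 and 60.5 CPM with T3 against 20.5 and 20.9 CPM with DMSO. The serotonin receptor genes HTR7 and HTR3A rose by 2.43 and 2.30, at 7.55 and 7.34 CPM for HTR7 with T3 against 1.64 and 1.11 CPM with DMSO. Of 25 interferon-stimulated genes 3 (12%) rose and 1 (4%) fell, against 9.43% and 6.54% of all genes. Of 19 chaperones of the endoplasmic reticulum 0 rose and 3 fell, and 0 or 1 fell with 1 library left out.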
